A study of Homo sapiens with 12 samples.

Results

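Wildtype cerebral organoids at day 60 of culture were compared with wildtype organoids at day 10, in bulk RNA-seq counts of 6 libraries out of the 12 of the series. The members were the wildtype raw count columns of each day: 2 libraries at day 60 (libraries 1 and 2) and 4 at day 10 (libraries 1 to 4). Cerebral organoids are aggregates of neural tissue that form from pluripotent stem cells, here from H1, a long-established line of human embryonic stem cells, whose neural progenitors give rise to cortical neurons over weeks. The wildtype groups carried no allele or agent that the labels name. The other 6 libraries were FEZ1-null organoids of the same line, 2 at day 60 and 4 at day 10. They entered the statistical fit and are otherwise named only beside a wildtype value or where the time course of the genotypes was compared. The comparison of days asks which transcripts changed while the unedited organoids matured. Each label also starts with a code whose meaning is not given. Both day 60 libraries carry B16, as do day 10 libraries 1 and 2, whereas day 10 library 3 carries B27 and library 4 carries B29. Nothing in the labels says that replicate libraries were grown as separate cultures. The p-values therefore rest on the spread among these libraries only, and part of it could be technical.

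As background, the dorsal forebrain starts as a sheet of dividing neuroepithelial cells that express SOX2 and PAX6. These become radial glia, which divide to give intermediate progenitors marked by EOMES, and these in turn give glutamatergic neurons of the deep and then the upper cortical layers. The RNA-binding proteins LIN28A and LIN28B mark the earliest progenitors. They block the maturation of the let-7 microRNAs, and let-7 in turn represses LIN28 and a set of growth-promoting transcripts, so that the fall of one and the rise of the other form a known developmental timer in animals. Neurons leave the cell cycle, change subunits of chromatin complexes and splicing factors, and add ion channels, transmitter receptors and synaptic proteins as they mature.

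The labelled tissue was checked against its defining markers. SOX2 stood at 317 and 253 CPM (the count scaled to library size and TMM factor) at day 60 and at 322, 204, 477 and 533 CPM at day 10. PAX6 had 223 and 245 CPM at day 60, against 204, 185, 191 and 226 CPM at day 10. Both neural progenitor genes were abundant on both days and the day groups overlapped. SOX2 was not called with all libraries, but was called lower without the B16 libraries of day 10 (-0.85; adjusted p = 0.00134). The pluripotency gene NANOG had 0 and 0 CPM at day 60, against 0.0891, 0, 0 and 0.0570 CPM at day 10, so it was near 0 in every library, and POU5F1 reached no more than 6.27 CPM. The cell type given in the labels is the stem cell line, whose pluripotency factors NANOG and POU5F1 were thus near 0 or low in all 6 libraries, while the neural genes were present in all.

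Total counts ran from 18.2 M to 18.7 M at day 60 and from 18.1 M to 22.7 M at day 10. The main axis of variation among the 6 libraries held 76.0% of the variance and separated the days. The next held 16.9% and set day 10 libraries 1 and 2 (-54.4 and -73.1), both B16, apart from libraries 3 and 4 (50.7 and 50.9), while day 60 lay at 16.3 and 9.59. The day 10 group is therefore a mixture of B16 libraries and others, and for genes whose call changed with the B16 wildtype day 10 libraries left out, the value without them is given beside the result. A fit of the 6 wildtype libraries alone, which estimates the spread without the FEZ1-null libraries, ended the calls of ACACA, COL1A1, GRIA2, LHX2, POU4F1, PTPN6, SOX10 and TFAP2B among the genes named here, with adjusted p-values between 0.0518 and 0.131. At day 60, library 2 held transcripts of several tissues outside the nervous system that library 1 had at far lower levels. Of all 17757 genes tested, 228 were at least 4-fold higher in day 60 library 2 than in library 1 and 2 were at least 4-fold lower (0.5 CPM added to each value). Among the fixed marker lists, 8 of 9 endothelial, 8 of 9 endodermal and 9 of 13 epithelial genes were at least 4-fold higher in it. Values that rest on day 60 library 2 are named where they occur.

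Of the 17757 genes that passed a filter on low counts, 9837 (55.4%) were called different between day 60 and day 10, with an adjusted p below 0.05 in edgeR's quasi-likelihood F test after Benjamini-Hochberg adjustment over all genes tested. Of these, 5195 (29.3% of genes tested) were higher and 4642 (26.1%) lower at day 60. A test against a minimum 2-fold change called 3838 genes (21.6%), 2456 higher (13.8%) and 1382 lower (7.78%). Any group of genes thus has to be read against a background in which more than 1 gene in every 4 was called in each direction. Each count of called list members below is to be read beside these 29.3% and 26.1% of all genes tested. The libraries of the days did not overlap in 12867 of the 17757 genes tested, so a lack of overlap was common. The median log2 fold change over all genes tested was -0.01, and it was 0.10 when libraries were scaled by their totals alone. Positive values mean higher at day 60, values after ± are standard errors, and each adjusted p for a gene comes from this test. In bulk RNA a lower value can come from fewer cells of a type or from less RNA per cell, and these cannot be told apart.

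**Figure D1:**
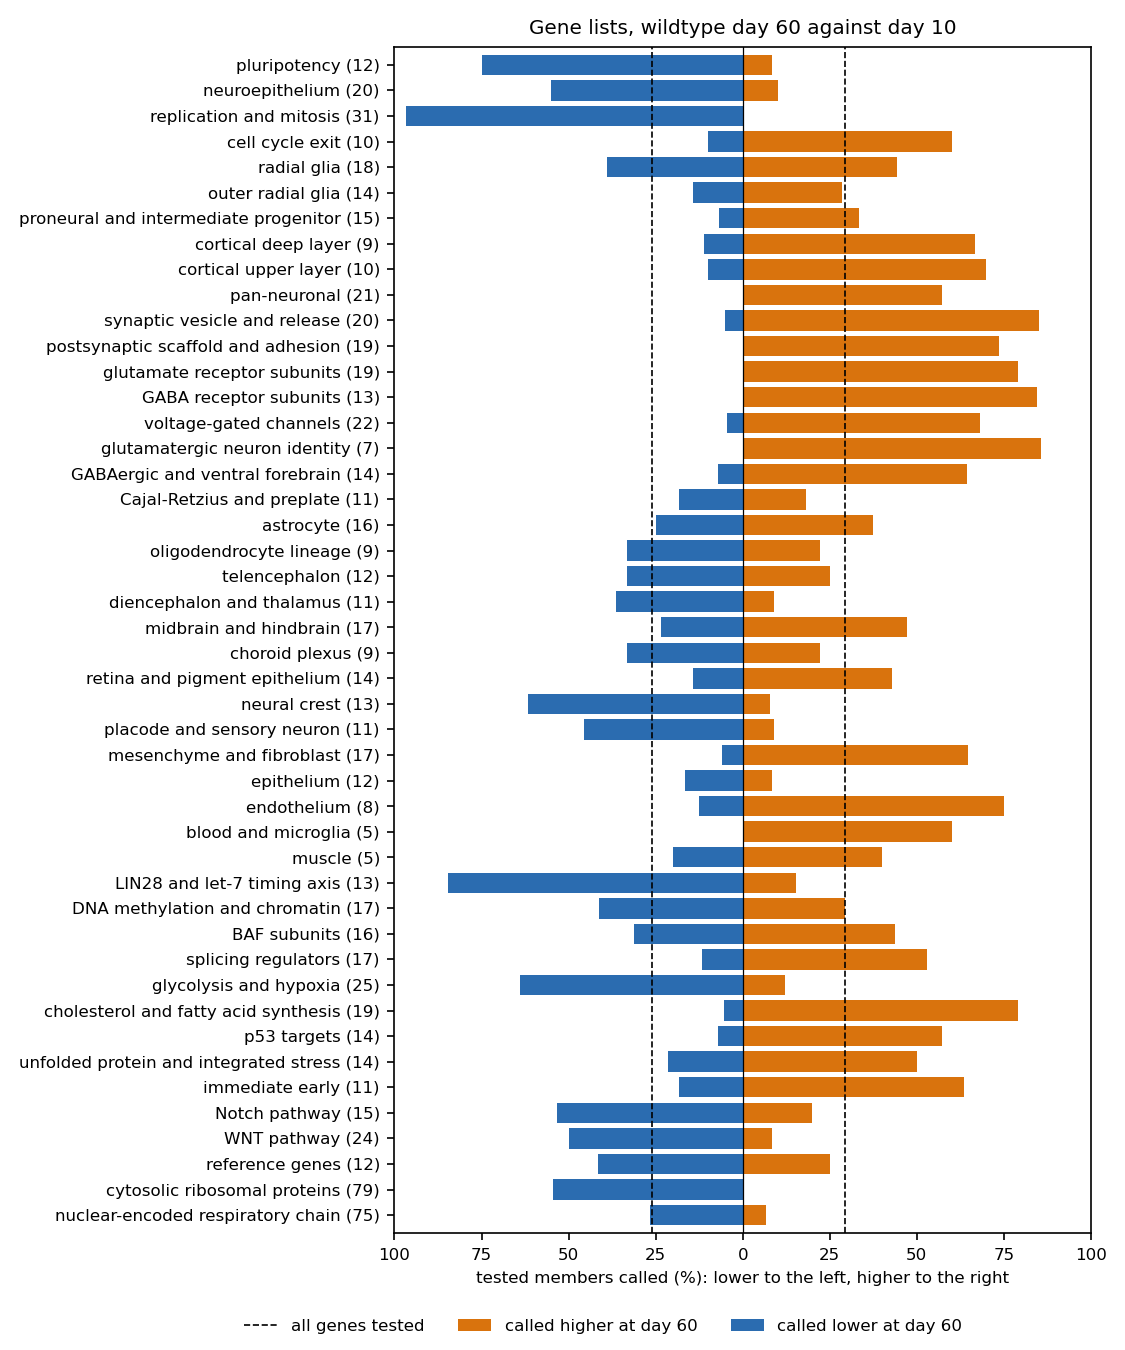
Percentage of the tested members of each gene list with at least 5 tested genes that were called higher (right, orange) or lower (left, blue) at day 60 than at day 10, with the number tested beside each list name. Dashed lines mark the 29.3% and 26.1% of all genes tested that were called higher and lower. The replication and mitosis list reaches 96.8% lower, whereas the synaptic vesicle and GABA receptor lists reach 85.0% and 84.6% higher.

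Counts were spread over more genes at day 60. The 50 most abundant genes of each library held 8.65% and 8.63% of counts in day 60 libraries, against 13.3%, 13.3%, 13.5% and 13.9% in day 10 libraries. At least 1 CPM was reached by 15078 and 15802 genes at day 60, against 14956, 14989, 14504 and 14520 genes at day 10. The larger day 60 number was that of library 2, while library 1 lay only slightly above day 10 library 2. Neither measure overlapped between the days. An exact permutation test of the difference of means, two-sided, gave p = 0.133 for both, which is the smallest value that 2 against 4 libraries allow.

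The LIN28 and let-7 timing list held a very large fall. LIN28A, an RNA-binding protein of early embryonic cells, had 0.313 and 0.605 CPM at day 60, against 1363, 1169, 1873 and 1869 CPM at day 10. Every day 10 library had over 1100 CPM and neither day 60 library reached 1 CPM (log2 fold change -11.71 ± 0.44; adjusted p = 1.6e-08). Its paralogue LIN28B had 9.74 and 8.53 CPM at day 60, against 138, 142, 173 and 176 CPM at day 10, a fall of smaller size (-4.11 ± 0.39; adjusted p = 7.8e-06). Of the 13 genes of the list, 11 fell and 2 rose, with a median log2 fold change of -2.52.

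The falling members other than LIN28 are genes that carry let-7 sites in animals, some of them growth-promoting. TRIM71, an RNA-binding ubiquitin ligase, had 10.8 and 13.3 CPM at day 60, against 233, 231, 306 and 298 CPM at day 10 (-4.47 ± 0.34). PRTG, a cell surface protein of the early neural tube, had 5.63 and 8.27 CPM at day 60, against 890.2, 904, 843 and 865 CPM at day 10 (-6.98 ± 0.53). The level of PRTG at day 10 was close in all 4 libraries, B16 or not, whereas TRIM71 was lower in the B16 libraries than in the others. HMGA2, a chromatin protein of young neural stem cells, had 44.5 and 50.4 CPM at day 60, against 238, 219.9, 307 and 322 CPM at day 10, a log2 fold change of -2.52 ± 0.23. HMGA1 had 276 and 242 CPM at day 60, against 1612, 1548, 2344 and 2575 CPM at day 10 (-2.96 ± 0.29). The mRNA-binding proteins IGF2BP1, IGF2BP3 and IGF2BP2 fell by 2.47, 2.08 and 0.81 on the log2 scale, so IGF2BP2 kept the most of its day 10 level among them. IGDCC3, a surface protein related to PRTG, fell by 3.99 and the DNA-binding protein ARID3A by 1.57.

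The genes of the list that rose are noncoding host transcripts of let-7 microRNAs. MIRLET7BHG, whose RefSeq span holds the hairpins of let-7a-3 and let-7b, had 233 counts over the day 60 libraries and 3 over the day 10 libraries, a ratio of 156 (95% exact counting interval 52.9 to 764). MIR99AHG, whose span holds the hairpin of let-7c, had 10.5 and 7.72 CPM at day 60, against 2.67, 3.28, 0.617 and 0.856 CPM at day 10 (2.28 ± 0.51; adjusted p = 0.00290). Both host transcripts were higher in each day 60 library than in any day 10 library. Of all 17757 genes tested, 12867 did not overlap between the days, in either direction. Mature microRNAs were not measured in these libraries. The let-7 microRNAs of these hosts are shown because they differ only outside the seed (bases 2 to 8, in capitals), from RefSeq in build GRCh38.p14:
let-7a-5p: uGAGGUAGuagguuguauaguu
let-7b-5p: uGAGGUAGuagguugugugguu
let-7c-5p: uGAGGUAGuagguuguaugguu

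All 8 let-7 5p names looked up (let-7a to let-7g and let-7i) share this seed. The 7 bases that pair with it, CTACCTC, were counted on the sense strand of 3′ UTRs of 1 annotated coding transcript per gene (GENCODE v29, the principal transcript where one is marked). All 11 protein-coding members of the list held at least 1 match. TRIM71 had 6 matches, LIN28B, HMGA2, IGF2BP1 and IGDCC3 had 4 each, ARID3A and PRTG had 2 each, and the remaining members had 1 each. Of the 14660 tested genes with such a 3′ UTR, 9.74% held at least 1 match. The members were listed as genes known for let-7 sites, so the choice of list set their share in advance. Their 3′ UTRs had from 1346 to 8466 bases, against a median of 1102 over the 14660 genes. The first 8-base match (CTACCTCA, in capitals) of 4 falling members is shown with its surroundings, to show how the same site stands in unrelated sequence:
HMGA2, chr12:65963297-65963324, plus strand: cgccaacgttcgatttCTACCTCAgcag
LIN28B, chr6:105078811-105078838, plus strand: tacccggttgcaaagtCTACCTCAtgca
TRIM71, chr3:32891967-32891994, plus strand: caacattgcttaagtcCTACCTCAtctt
PRTG, chr15:55619589-55619616, minus strand: cccctttgctgactatCTACCTCAgttt
These coordinates are GRCh38, whereas the counts were made on hg19. Genes with 3 or more matches numbered 29, of which 14 (48.3%) were called lower, against 26.2% of genes with none. Leaving out the list members, 24 genes had 3 or more matches and 9 of them were called lower. Genes with 3 or more matches had a median 3′ UTR of 5954 bases, against 983 bases in genes with none, and the share was not tested. A match of letters does not show that a site is used.

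**Figure D2:**
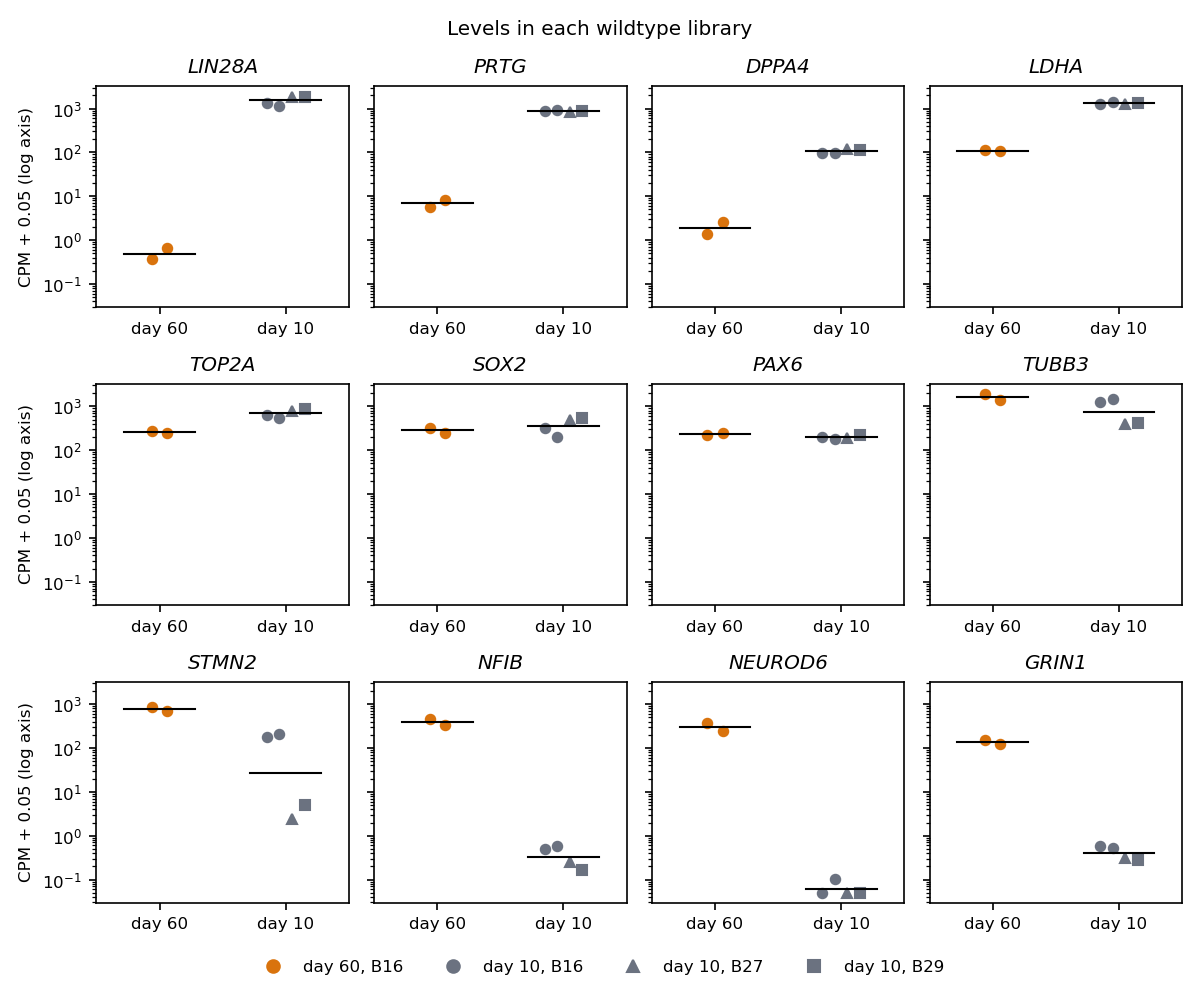
Level of 12 genes in each wildtype library (CPM plus 0.05, log axis), with the 2 day 60 libraries left of the 4 day 10 libraries. Circles are B16 libraries, triangles B27 and squares B29, and short lines are group means of the log values. LIN28A is above 1100 CPM in every day 10 library and below 1 CPM at day 60. NEUROD6 shows the opposite order, whereas SOX2 and PAX6 overlap between the days.

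Residual pluripotency genes fell. Of 12 tested genes of that list, 9 (75.0%) were called lower and 1 (8.33%) higher, against 26.1% and 29.3% of all genes tested. The median log2 fold change was -4.16. DPPA4, a chromatin-associated protein of pluripotent cells, had 1.35 and 2.47 CPM at day 60, against 97.4, 97.7, 119 and 116 CPM at day 10 (-5.81 ± 0.30). SALL4, a zinc finger factor, had 2.08 and 5.20 CPM at day 60, against 186, 162, 214 and 229 CPM at day 10 (-5.76 ± 0.37). Both stood near or above 100 CPM in each day 10 library and below 6 CPM in each day 60 library. POU5F1 fell by 2.59 from a level already low at day 10 (1.96, 2.71, 6.27 and 5.19 CPM), and its call was lost without day 60 library 1 (-2.08; adjusted p = 0.0576). TERT, the catalytic subunit of telomerase, was at 0.260 and 0.404 CPM at day 60 and at 7.88, 4.17, 22.5 and 19.9 CPM at day 10. The member called higher was LEFTY1, a secreted inhibitor of Nodal signalling, at 1.82 and 1.41 CPM at day 60 and 0.312, 0.0521, 0.103 and 0.171 CPM at day 10. NODAL and UTF1 were not called (adjusted p = 0.728 and 0.706).

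Neuroepithelial genes did not move as a block. Of the 20 tested genes, 11 were called lower and 2 higher. OTX2, a homeobox factor of the early forebrain and midbrain, had 6.51 and 7.42 CPM at day 60, against 224, 198, 338 and 338 CPM at day 10 (-5.30 ± 0.29; adjusted p = 1.9e-07). NES, the intermediate filament nestin, had 269.7 and 253 CPM at day 60, against 779, 674, 672 and 701 CPM at day 10, and the adhesion protein CDH2 had 168 and 147 CPM at day 60, against 479, 444, 472 and 519 CPM at day 10. Both were called lower (-1.43 ± 0.18 and -1.60 ± 0.18). SOX1 and LHX2 were called higher. LHX2, a selector of cortical identity, had 313 and 264 CPM at day 60, against 43.2, 12.6, 132 and 134 CPM at day 10, and its day 10 level was lower in the B16 libraries than in the others. The call of LHX2 was lost without day 60 library 1, day 60 library 2 or day 10 library 1 (log2 fold changes 1.70, 1.96 and 1.63). RAX and SIX3, factors of the eye field and forebrain, were not called and overlapped between the days. RAX had 17.7 and 36.7 CPM at day 60, against 18.4, 3.44, 121 and 114 CPM at day 10, so the B16 libraries of day 10 were far below the other day 10 libraries. With those B16 libraries left out both were called lower, RAX at -2.14 and SIX3 at -1.63.

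Proliferation genes were lower at day 60. Of 31 genes of replication and mitosis, 30 were called lower and 0 higher, and 19 fell by more than 2-fold in the test with that minimum. The proliferation marker MKI67 had 135 and 113 CPM at day 60, against 279, 267, 311 and 326 CPM at day 10 (-1.25 ± 0.24). TOP2A, the DNA topoisomerase of dividing cells, had 276 and 246 CPM at day 60, against 648, 552, 803 and 852 CPM at day 10 (-1.45 ± 0.26). Both were still above 100 CPM at day 60, so transcripts of dividing cells were reduced but present. The licensing factors CDC6 and CDT1, which load the replicative helicase, fell by 2.83 and 2.60 on the log2 scale, and the helicase subunit MCM3 by 2.23. CCNB1, the mitotic cyclin B1, fell by 1.89, and its kinase CDK1 by 0.87. The call of CDK1 was lost without day 60 library 1 (-0.99), without library 2 (-0.77) and within B16 alone (-0.44). CCNE2 was the member not called, with 2.60 and 3.38 CPM at day 60, against 4.45, 4.64, 5.24 and 5.99 CPM at day 10 (adjusted p = 0.0822, and 0.0337 in the fit of wildtype libraries alone). The summed level of the list was 1755 and 1582 CPM at day 60, against 4236 and 3671 CPM in the B16 libraries and 5682 and 5697 CPM in the other day 10 libraries. The median log2 fold change of the list was -1.61, and -1.32 within B16 alone.

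Promoters of the mitotic list were searched for elements known from cell-cycle genes, from 250 bases before to 50 after the RefSeq start, on both strands. The CCAAT box (CCAAT) stood in 20 of the 26 promoters found for the 31 genes, against 35.8% of the promoters of all genes tested. The cell cycle homology element (TTTGAA) stood in 9 of 26, against 10.1%. An E2F element (GCGGGAA) stood in 6 of 26, against 9.62%. No motif contains another. These letters were matched only, and no factor was measured. The promoters of TOP2A and CCNB1, which fell, are shown with CCAAT and TTTGAA on either strand in capitals, each 300 bases in GRCh38.p14:
TOP2A, chr17:40417847-40418146, minus strand: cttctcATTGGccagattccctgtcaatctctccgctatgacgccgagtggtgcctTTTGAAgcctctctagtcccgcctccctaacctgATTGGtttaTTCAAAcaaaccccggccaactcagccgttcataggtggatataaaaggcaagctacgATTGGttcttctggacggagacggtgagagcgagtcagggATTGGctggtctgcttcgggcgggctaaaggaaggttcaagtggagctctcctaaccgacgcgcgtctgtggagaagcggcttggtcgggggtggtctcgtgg
CCNB1, chr5:69166900-69167199, plus strand: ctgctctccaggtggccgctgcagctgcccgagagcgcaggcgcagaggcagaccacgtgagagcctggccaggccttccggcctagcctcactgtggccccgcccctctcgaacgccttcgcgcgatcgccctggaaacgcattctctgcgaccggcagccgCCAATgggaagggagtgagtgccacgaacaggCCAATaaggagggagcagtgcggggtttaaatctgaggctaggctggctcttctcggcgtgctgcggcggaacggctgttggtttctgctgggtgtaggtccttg

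In the cell cycle exit list 6 of 10 genes were called higher and 1 lower. The members called higher include CCND2, a D-type cyclin that drives the cycle (1.29 ± 0.17), so the count is not one of inhibitors alone. CDKN2D, an inhibitor of CDK4 and CDK6 that is abundant in postmitotic neurons, had 136 and 107 CPM at day 60, against 9.76, 10.4, 2.93 and 3.08 CPM at day 10 (4.21 ± 0.46). CDKN1B, which encodes p27, had 175 and 158 CPM at day 60, against 69.2, 66.6, 68.0 and 72.9 CPM at day 10, without dependence on the code at day 10 (1.27 ± 0.11; adjusted p = 4.9e-06). CDKN1C, which encodes p57, was not called and overlapped between days.

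Radial glia genes split. Of 18 genes, 8 (44.4%) were called higher and 7 (38.9%) lower, against 29.3% and 26.1% of all genes tested. The nuclear factor I genes rose most. NFIB had 452 and 332 CPM at day 60, against 0.445, 0.521, 0.206 and 0.114 CPM at day 10 (10.19 ± 0.37) and NFIA had 157 and 113 CPM at day 60, against 1.20, 1.30, 0.154 and 0.114 CPM at day 10 (7.56 ± 0.58). Neither reached 2 CPM in any day 10 library, and in mice these factors are needed for glial differentiation and for the maturation of cortical progenitors. The glutamate transporter SLC1A3 had 144 and 105 CPM at day 60, against 17.0, 14.1, 12.5 and 15.3 CPM at day 10 (3.08 ± 0.26), and FABP7, a fatty acid binding protein of radial glia, had 255 and 169.7 CPM at day 60, against 60.7, 54.6, 44.2 and 44.3 CPM at day 10 (2.06 ± 0.27). VIM, GLI3 and PHGDH were called lower, at -0.62 ± 0.15, -1.54 ± 0.21 and -1.41 ± 0.21, and the call of VIM was lost without day 60 library 1 (-0.50). HES1 and HES5, effectors of Notch signalling that keep progenitors from differentiating, were not called (adjusted p = 0.0679 and 0.622). HES1 was called higher without the B16 libraries of day 10 (0.74; adjusted p = 0.0133).

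Markers of outer radial glia, the progenitors that enlarge the human cortex, gave a mixed picture. HOPX had 174 counts over the day 60 libraries and 1 over the day 10 libraries, a ratio of 351 (95% exact counting interval 62.1 to 13926), but its day 60 level was only 4.90 and 4.04 CPM. PTPRZ1, another marker, was abundant on both days and not called, with 376 and 317 CPM at day 60, against 272, 212, 452 and 475 CPM at day 10. TNC was at 42.8 and 27.5 CPM at day 60, at 118 and 123 CPM in the B16 libraries of day 10 and at 17.99 and 13.5 CPM in the others, and was not called. Without the B16 libraries of day 10 its log2 fold change was 1.13 (adjusted p = 0.0386), against -0.95 with them. In all, 4 of 14 were called higher, a share close to the 29.3% of all genes, and 2 lower.

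The count of intermediate progenitor and proneural genes called depended on the day 10 libraries used. EOMES, the T-box factor of intermediate progenitors, had 98.1 and 66.1 CPM at day 60, against 2.45, 1.72, 0.463 and 1.26 CPM at day 10 (5.78 ± 0.59; adjusted p = 1.2e-05). NEUROG2, the proneural factor of glutamatergic lineages, had 242 and 191 CPM at day 60, against 9.62, 6.72, 9.87 and 11.1 CPM at day 10 (4.54 ± 0.22). Of the 15 list members, 5 were called higher and 1 lower. Without the B16 libraries of day 10, 15 members were called and the median log2 fold change was 4.38, against 0.42 with them. Within B16 alone the median was -0.55, so the median of this list changed sign with the day 10 libraries used.

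Glutamatergic neuron genes showed very large rises, with 6 of 7 called higher and 0 lower. NEUROD6, a basic helix-loop-helix factor of cortical projection neurons, had 12128 counts over the day 60 libraries and 1 count over the day 10 libraries (376 and 248 CPM at day 60), a ratio of 24436 with a wide 95% exact counting interval of 4385 to 965235. NEUROD2, a related factor, had 657 and 447 CPM at day 60, against 0.312, 0.209, 0 and 0.0570 CPM at day 10 (11.77 ± 0.45). SLC17A7, the vesicular glutamate transporter VGLUT1, had 298 and 225 CPM at day 60, against 8.78, 8.03, 3.85 and 3.77 CPM at day 10 (5.41 ± 0.34). TBR1, the T-box factor of the earliest-born and deep-layer neurons, had 336 and 241 CPM at day 60, against 1.29, 1.15, 0.411 and 0.913 CPM at day 10 (8.24 ± 0.59). In each of these genes both day 60 libraries were far above every day 10 library, B16 or not. The adaptor gene SLA rose by 10.67. SLC17A6, which encodes VGLUT2, was the member not called, with 11.98 and 9.74 CPM at day 60, against 4.19, 4.17, 0.154 and 0.114 CPM at day 10 (adjusted p = 0.0518). It was called higher both within B16 alone (1.37; adjusted p = 0.00202) and without the B16 libraries of day 10 (6.23; adjusted p = 9.4e-06).

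Deep-layer and upper-layer factors rose together. BCL11B, which specifies corticospinal neurons in mice, had 119 and 89.7 CPM at day 60, against 2.76, 2.76, 4.06 and 4.85 CPM at day 10 (4.86 ± 0.26). CUX2, an upper-layer factor, had 59.1 and 50.7 CPM at day 60, against 17.2, 17.9, 10.8 and 11.8 CPM at day 10 (1.93 ± 0.21). POU3F3, a POU factor of late progenitors and upper-layer neurons, had 503 and 428 CPM at day 60, against 4.19, 5.11, 0.771 and 0.513 CPM at day 10 (7.44 ± 0.76). Of the deep-layer list 6 of 9 and of the upper-layer list 7 of 10 were called higher. Each list also held 1 member that fell. TLE4, a corepressor used as a deep-layer marker, had 46.5 and 43.5 CPM at day 60, against 154, 115, 256 and 269 CPM at day 10, and UNC5D, a netrin receptor used as an upper-layer marker, had 6.15 and 6.15 CPM at day 60, against 38.4, 47.3, 36.0 and 32.7 CPM at day 10. FOXP2 and CUX1 were not called (adjusted p = 0.513 and 0.0575). When the B16 libraries of day 10 were left out, FOXP2 was called higher (2.43) and CUX1 lower (-0.43).

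General neuronal genes were high at day 60, but their change was measured against a day 10 group of unequal libraries. Of 21 genes, 12 were called higher and 0 lower. MAPT, which encodes tau, had 746 and 587 CPM at day 60, against 33.4, 35.9, 6.17 and 7.53 CPM at day 10 (5.002 ± 0.62). NSG2, an endosomal protein of neurons, had 479 and 369 CPM at day 60, against 4.14, 4.48, 0.565 and 0.628 CPM at day 10 (7.41 ± 0.77). DCX, the microtubule protein of migrating neurons, had 674 and 494 CPM at day 60, against 91.6, 114, 20.3 and 19.1 CPM at day 10 (3.25 ± 0.60). The log2 fold changes of MAPT, NSG2 and DCX were 6.58, 9.43 and 4.86 without the B16 libraries of day 10. TUBB3, neuronal beta tubulin, was at 1925 and 1397 CPM at day 60, at 1280.5 and 1459 CPM in the B16 libraries of day 10 and at 393 and 407 CPM in the others, and was not called (adjusted p = 0.135). STMN2, a regulator of axonal microtubules, was at 843 and 682 CPM at day 60, at 181 and 212 CPM in the B16 libraries of day 10 and at 2.42 and 4.96 CPM in the others (adjusted p = 0.0720). Both TUBB3 and STMN2 were called higher without the B16 libraries (2.03 and 7.67), and STMN2 also within B16 alone (1.95). The neurofilament gene NEFM was at 115 and 119.7 CPM at day 60, below the 376 and 471 CPM of the B16 libraries of day 10 and above the 15.1 and 15.7 CPM of the others. Its log2 fold change was -0.90 with all libraries and 2.90 without the B16 ones. Without the B16 libraries 19 members were called, with a median log2 fold change of 2.91, against 2.27 with all libraries and 1.78 within B16.

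Most transmitter receptor subunits rose. Of 19 glutamate receptor subunits 15 were called higher and 0 lower. GRIN1, the obligate subunit of NMDA receptors, had 153 and 123 CPM at day 60, against 0.535, 0.469, 0.257 and 0.228 CPM at day 10 (8.49 ± 0.29; adjusted p = 1.3e-08). GRIN2B, the NMDA receptor subunit of the fetal brain, had 91.7 and 70.9 CPM at day 60, against 2.90, 3.86, 5.35 and 5.88 CPM at day 10 (4.18 ± 0.29). GRIN2A, the subunit that increases after birth in rodents, was not called and stayed below 7 CPM in every library, although it was called higher within B16 alone (1.12; adjusted p = 0.0454). The AMPA receptor subunit GRIA1 had 238 and 175 CPM at day 60, against 4.41, 2.87, 9.82 and 9.81 CPM at day 10 (4.94 ± 0.40). GRIA2, which makes AMPA receptors impermeable to calcium, had 501 and 381 CPM at day 60, against 35.9, 46.2, 0.463 and 0 CPM at day 10, with the B16 libraries of day 10 far above the others (4.41 ± 1.31). Its call was lost without day 60 library 1 (4.19; adjusted p = 0.0563). The log2 fold change of GRIA2 was 3.42 within B16 alone and 10.77 without the B16 libraries of day 10. Among the 13 GABA receptor subunits 11 were called higher and 0 lower.

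Voltage-gated channels followed. Of 22 genes 15 were called higher and 1 lower. SCN2A, the sodium channel of young excitatory axons, had 54.0 and 42.4 CPM at day 60, against 0.178, 0.209, 0.206 and 0.171 CPM at day 10 (7.93 ± 0.23; adjusted p = 5.0e-09). SCN3A, a sodium channel of the fetal brain, had 53.6 and 44.6 CPM at day 60, against 25.5, 30.0, 0.565 and 0.799 CPM at day 10 and was not called (adjusted p = 0.172). SCN2A was alike in all day 10 libraries, whereas SCN3A was high in the B16 ones. SCN3A was called higher within B16 alone (0.82; adjusted p = 0.0184) and without the B16 libraries of day 10 (6.14). KCNQ3, a subunit of the M-type potassium channel, rose by 3.63 and CACNA1E, a calcium channel, by 2.86.

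Synaptic genes were called higher in 17 of 20 vesicle and release genes, with 1 lower, and in 14 of 19 postsynaptic scaffold and adhesion genes, with 0 lower. SYN1, a protein of synaptic vesicles, had 46.8 and 36.4 CPM at day 60, against 6.15, 6.46, 2.52 and 3.02 CPM at day 10 (3.19 ± 0.33). SNAP25, a SNARE protein of vesicle fusion, had 137 and 105 CPM at day 60, against 9.27, 13.7, 0.206 and 0.342 CPM at day 10 (4.35 ± 0.98). SYP, the vesicle protein synaptophysin, had 164 and 132 CPM at day 60, against 48.7, 57.1, 2.21 and 2.40 CPM at day 10 and was not called (adjusted p = 0.0553). LRRTM2, a postsynaptic adhesion protein, had 75.6 and 64.0 CPM at day 60, against 0.223, 0.261, 0.257 and 0.171 CPM at day 10 (8.21 ± 0.37). DLG4, the scaffold PSD-95, rose by 1.02. LRRTM2 was alike in all 4 day 10 libraries, whereas SNAP25 and SYP were higher in the B16 libraries. With those left out the log2 fold change was 8.74 for SNAP25 and 5.97 for SYP, which was then called higher. Within B16 alone these values were 3.40 and 1.48, and SYP was called there too (adjusted p = 0.00392).

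GABAergic and ventral forebrain genes were also measured. Of 14 tested genes, 9 were called higher and 1 lower. DLX2, a homeobox factor of interneuron precursors, had 19.2 and 9.13 CPM at day 60, against 0.579, 0.938, 0.103 and 0.171 CPM at day 10 (4.94 ± 0.54). Its neighbour DLX1 had 17.8 and 7.87 CPM at day 60, against 0.935, 0.573, 0.0514 and 0.114 CPM at day 10 (4.86 ± 0.57), and for both genes day 60 library 1 was the higher. The vesicular GABA transporter SLC32A1 had 7.14 and 3.63 CPM at day 60, against 0.490, 0.261, 0.206 and 0.228 CPM at day 10 (4.13 ± 0.55). GAD1, which makes GABA, was not called, with 10.0 and 6.15 CPM at day 60, against 4.68, 4.38, 13.1 and 13.8 CPM at day 10, but was called higher within B16 alone (0.83; adjusted p = 0.0245) and lower without the B16 libraries of day 10 (-0.76; adjusted p = 0.0223). NKX2-1, the factor of the medial ganglionic eminence, had 0.0521 and 0.101 CPM at day 60, against 0, 0, 0 and 0 CPM at day 10. SST, the neuropeptide somatostatin, had 4.01 and 3.23 CPM at day 60, against 91.5, 103, 0.206 and 0.228 CPM at day 10 and was not called (adjusted p = 0.117). Its high values were in the B16 libraries of day 10, without which its log2 fold change was 3.99, against -3.75 with them.

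Cajal-Retzius cells, an early neuron type at the cortical surface, are marked by RELN. RELN had 51.8 and 58.2 CPM at day 60, against 51.5, 74.3, 0.668 and 0.513 CPM at day 10, so day 60 was close to the B16 libraries and far above the others, and the gene was not called (adjusted p = 0.620). Against libraries 3 and 4 alone it was called higher (6.49; adjusted p = 2.0e-05). TP73 stayed below 2 CPM in every library. Among glial genes, the astrocyte filament GFAP had 24.6 and 11.8 CPM at day 60, against 0.535, 0.626, 0.206 and 0.228 CPM at day 10 (5.47 ± 0.42; adjusted p = 1.7e-06). The other defining astrocyte genes were near 0 on both days: AQP4 reached at most 0.626 CPM and S100B at most 1.72 CPM, and neither was called, although S100B was called lower within B16 alone (-2.07; adjusted p = 0.00680). GJA1, the gap junction protein of astrocytes and of early progenitors, had 45.0 and 72.6 CPM at day 60, against 487, 365, 678 and 769 CPM at day 10 (-3.29 ± 0.36). Of the astrocyte list 6 of 16 were called higher and 4 lower, against 29.3% and 26.1% of all genes tested. For oligodendrocytes, OLIG2 was not called and stayed below 4 CPM, PDGFRA had 12.8 and 25.6 CPM at day 60, against 5.30, 7.98, 3.14 and 2.11 CPM at day 10, and the myelin gene MBP had 1.61 and 5.65 CPM at day 60, against 0.757, 1.20, 1.44 and 1.26 CPM at day 10. MBP was called higher, but not without day 60 library 2 (0.48; adjusted p = 0.454) or without the B16 libraries of day 10 (1.40; adjusted p = 0.0559). OLIG2 was called higher without those B16 libraries (4.13; adjusted p = 0.00112).

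Ratios of partner genes within each library, in which library scaling and gene length cancel from the change, were taken for pairs known to switch during neuronal differentiation. In the BAF chromatin complex, ACTL6A is the progenitor subunit that ACTL6B replaces in neurons. The log2 ratio of ACTL6B to ACTL6A differed by 6.33 between the day means. At day 10 it stood at -3.81, -3.34 (B16), -9.34 and -8.31, and the difference was 8.95 without the B16 libraries. The log2 ratio of DPF1 to PHF10 differed by 3.44, and neither ratio overlapped between the days. SS18L1 over SS18 differed by 1.28. Behind these stood rises of ACTL6B (3.96 ± 0.93) and DPF1 (2.84 ± 0.24) and a fall of ACTL6A (-0.75 ± 0.14). The log2 fold change of ACTL6B was 3.01 within B16 alone and 8.26 without the B16 libraries of day 10. SS18L1 (0.49 ± 0.17) was called higher, but neither without those libraries (0.54) nor within B16 alone (0.42). BCL11A, a zinc finger subunit of the complex in neurons, had 186 and 123 CPM at day 60, against 1.29, 1.36, 0.617 and 0.570 CPM at day 10 (7.31 ± 0.32), and SMARCA2, an ATPase of the complex, had 113 and 98.7 CPM at day 60, against 1.74, 2.50, 0.720 and 0.685 CPM at day 10 (6.21 ± 0.41).

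**Figure D3:**
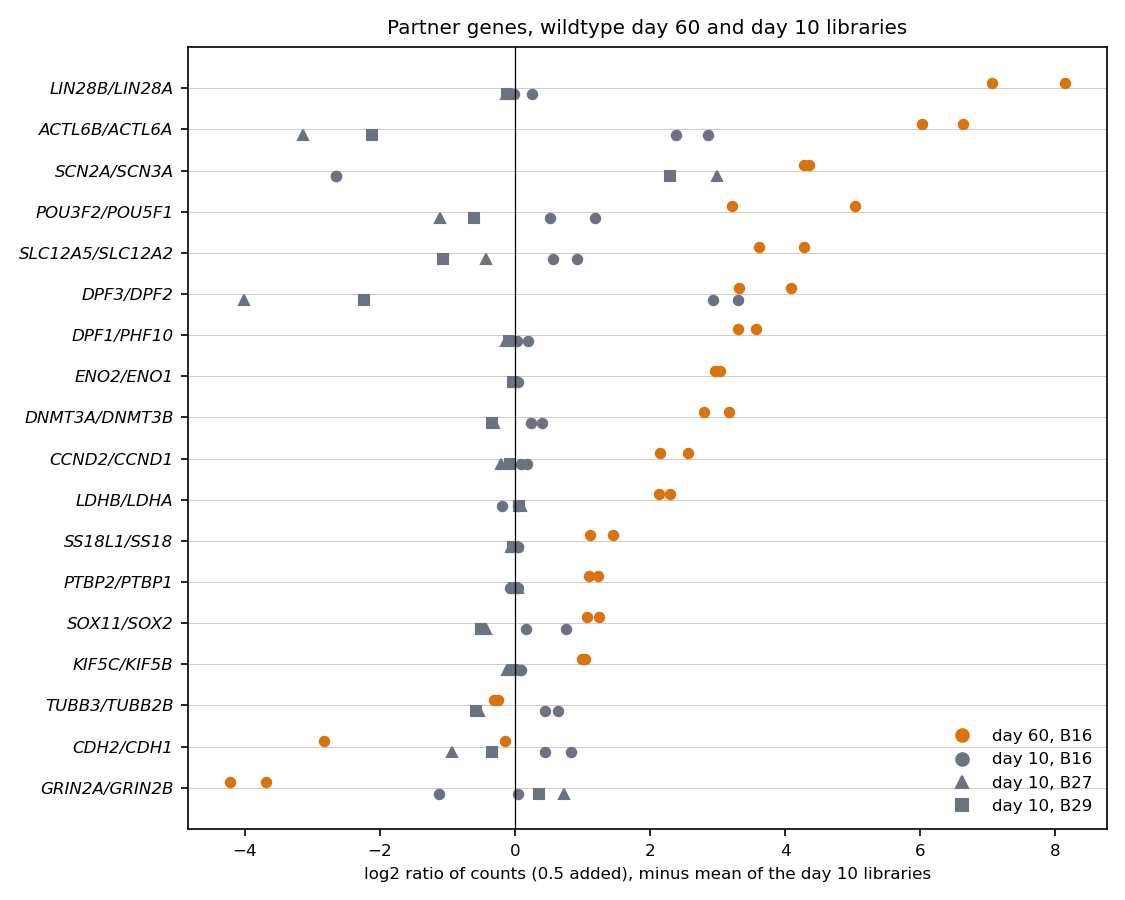
Log2 ratio of counts of 2 partner genes within each wildtype library, centred on the mean of the 4 day 10 libraries, for 18 fixed pairs. Orange symbols are day 60 libraries and grey symbols day 10 libraries (circles B16, triangle B27, square B29). LIN28B over LIN28A moved up by 7.60 (7.73 without the B16 libraries of day 10), ACTL6B over ACTL6A by 6.33 (8.95 without them), and GRIN2A over GRIN2B moved by -3.95, while TUBB3 over TUBB2B and CDH2 over CDH1 overlapped.

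In other pairs 1 partner carried most of the change. PTBP1, a repressor of neuronal exons, had 326 and 319 CPM at day 60, against 735, 737, 757 and 755 CPM at day 10 (-1.21 ± 0.15), whereas PTBP2 had 60.9 and 54.4 CPM at day 60, against 60.3, 55.4, 61.8 and 59.2 CPM at day 10 and was not called. The change of their log2 ratio (1.17) thus lay in PTBP1. SLC12A5, the chloride exporter KCC2, over SLC12A2, the importer NKCC1, differed by 3.95. DNMT3A over DNMT3B differed by 2.98. DNMT3B, the early de novo DNA methyltransferase, had 23.9 and 28.3 CPM at day 60, against 172, 158, 256 and 243 CPM at day 10, while DNMT3A had 180.1 and 165 CPM at day 60, against 170.4, 174, 172 and 162 CPM at day 10 and was not called. ENO2 over ENO1 differed by 2.997 and KIF5C over KIF5B by 1.02. The log2 ratio of GRIN2A to GRIN2B differed by -3.95, with GRIN2B called higher and GRIN2A not called. The BAF, splicing and DNA methylation lists as wholes had 7 of 16, 9 of 17 and 5 of 17 called higher and 5, 2 and 7 called lower, against 29.3% and 26.1% of all genes.

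Regional patterning genes did not go one way. In the telencephalon list 3 of 12 were called higher and 4 lower, against 29.3% and 26.1% of all genes tested. This split was close to that of all genes, so the count sets the list apart in neither direction. EMX1, a dorsal factor, had 129 and 94.3 CPM at day 60, against 13.7, 8.39, 14.96 and 17.97 CPM at day 10 (3.02 ± 0.31), whereas EMX2 fell by 1.06. FGF8, the signal of the anterior neural ridge and the isthmus, had 0.417 and 0.454 CPM at day 60, against 20.3, 8.44, 64.6 and 62.6 CPM at day 10 (-6.46 ± 0.97), and SP8, a factor downstream of it, had 23.4 and 14.8 CPM at day 60, against 184, 113, 296 and 316 CPM at day 10. WNT8B, a signal of the cortical hem, had 0.833 and 0.656 CPM at day 60, against 147, 156, 70.8 and 75.3 CPM at day 10 (-7.22 ± 0.68). TCF7L2, a factor of the thalamus and of WNT signalling, had 21.0 and 23.8 CPM at day 60, against 76.9, 66.1, 63.3 and 69.0 CPM at day 10. FGF8 and WNT8B were thus below 1 CPM in both day 60 libraries, while FGF8 was lower, and WNT8B higher, in the B16 libraries of day 10 than in the others.

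HOX genes, which pattern the hindbrain, spinal cord and trunk and are absent from the normal forebrain, were detected at day 60. HOXB5 had 58.8 and 61.9 CPM at day 60 and no count in any day 10 library, at least 1582-fold higher against a floor of 3 counts over the group. HOXB8, HOXB6 and HOXB4 had 53.3 and 51.5, 36.2 and 35.1 and 22.1 and 18.3 CPM at day 60 and no count at day 10, at least 1372-fold, 934-fold and 528-fold higher. HOXB3 had 72.6 and 57.0 CPM at day 60, against 0, 0.313, 0 and 0 CPM at day 10. These 5 genes were close in both day 60 libraries. The rest of the HOX clusters was read after these values were seen. Of the A, C and D cluster genes, HOXC4 was highest in day 60 library 1 (8.70 CPM, and 5.75 CPM in library 2), and HOXA10 was detected in library 2 alone (5.50 CPM). The FEZ1-null organoids at day 60 also had HOXB5, at 109 and 118 CPM, and none at day 10.

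**Figure D4:**
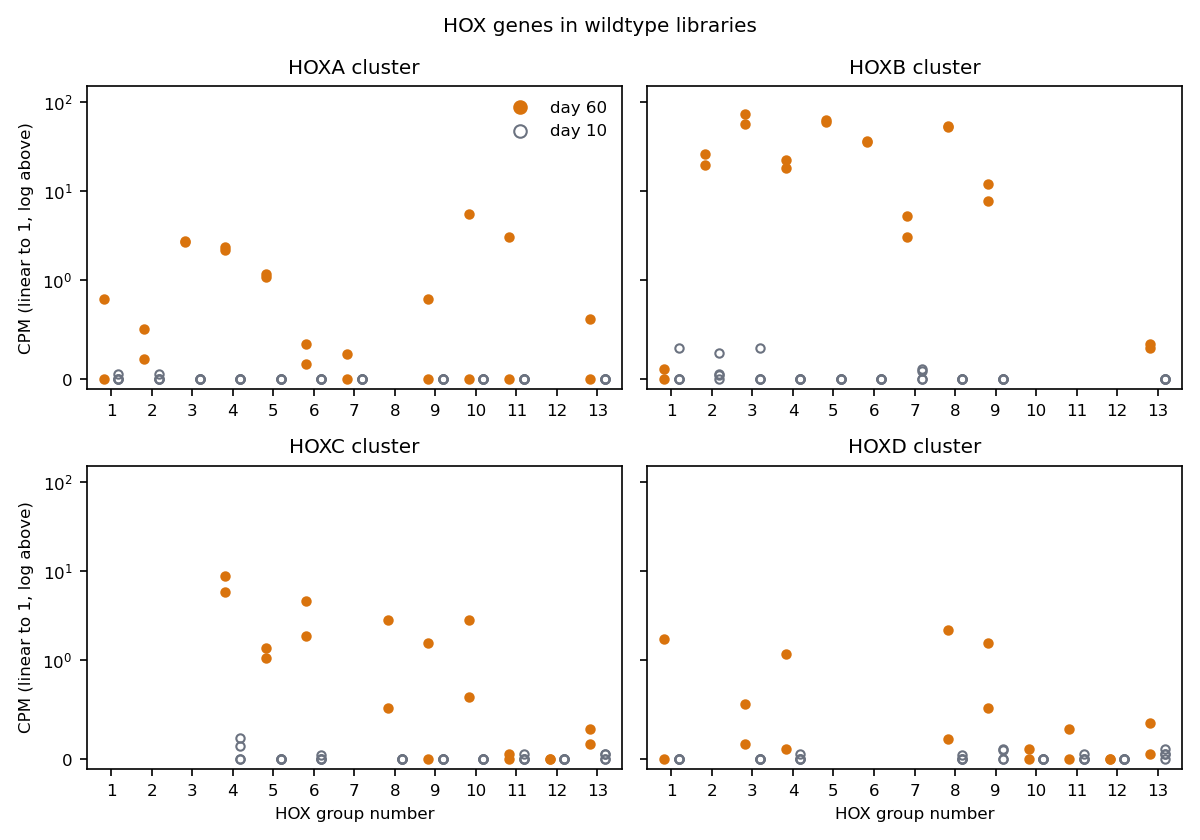
Level of each gene of the 4 HOX clusters (CPM, axis linear up to 1 CPM and logarithmic above), in order along the cluster from group 1 to group 13. Filled orange points are wildtype day 60 libraries and open grey points wildtype day 10 libraries. HOXB2 to HOXB6 and HOXB8 lie between 18.3 and 72.6 CPM at day 60 in both libraries, whereas no HOX gene exceeds 0.313 CPM at day 10.

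Genes of neural crest and placodes, which form the peripheral nervous system, were high in the wildtype B16 libraries of day 10. SOX10, the factor of migrating neural crest, had 2.45 and 2.02 CPM at day 60, against 184, 278, 5.24 and 5.42 CPM at day 10 (-5.72 ± 1.68; adjusted p = 0.0134). TFAP2B had 1.15 and 0.656 CPM at day 60, against 251, 387, 3.65 and 2.22 CPM at day 10 (-7.48 ± 2.28; adjusted p = 0.0160). POU4F1, the factor of sensory neurons, had 0.990 and 3.33 CPM at day 60, against 259, 357, 0.822 and 0.570 CPM at day 10 (-6.15 ± 2.42; adjusted p = 0.0488). In each of these genes only the 2 B16 libraries among the wildtype day 10 libraries were high, and libraries 3 and 4 were within a few CPM of day 60. Without the B16 libraries the log2 fold changes were -1.28, -1.73 and 1.59, with adjusted p-values of 0.0251, 0.113 and 0.266. Without day 60 library 1 or library 2 none of these 3 genes was called. PAX3, a factor of the dorsal neural tube and crest, had 0.313 and 0.202 CPM at day 60, against 113, 175, 7.09 and 7.13 CPM at day 10 and had a log2 fold change of -4.78 without them (adjusted p = 0.00371). Of 13 neural crest genes 8 (61.5%) were called lower and 1 (7.69%) higher. Of 11 placode and sensory genes 5 (45.5%) were called lower and 1 (9.09%) higher. Over all genes tested 26.1% were called lower and 29.3% higher. The summed neural crest markers were at 75.3 and 54.3 CPM and the placode markers at 42.2 and 50.4 CPM in the B16 libraries of FEZ1-null organoids at day 10, so these high sums were seen in the wildtype B16 libraries of day 10 only. The neural crest list had 3 and 5 called members without day 60 library 1 and without library 2, and the placode list had 3 with either left out. The median log2 fold changes of these lists were -2.88 and -3.46 with all libraries and -0.60 and 1.59 without the B16 libraries.

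**Figure D5:**
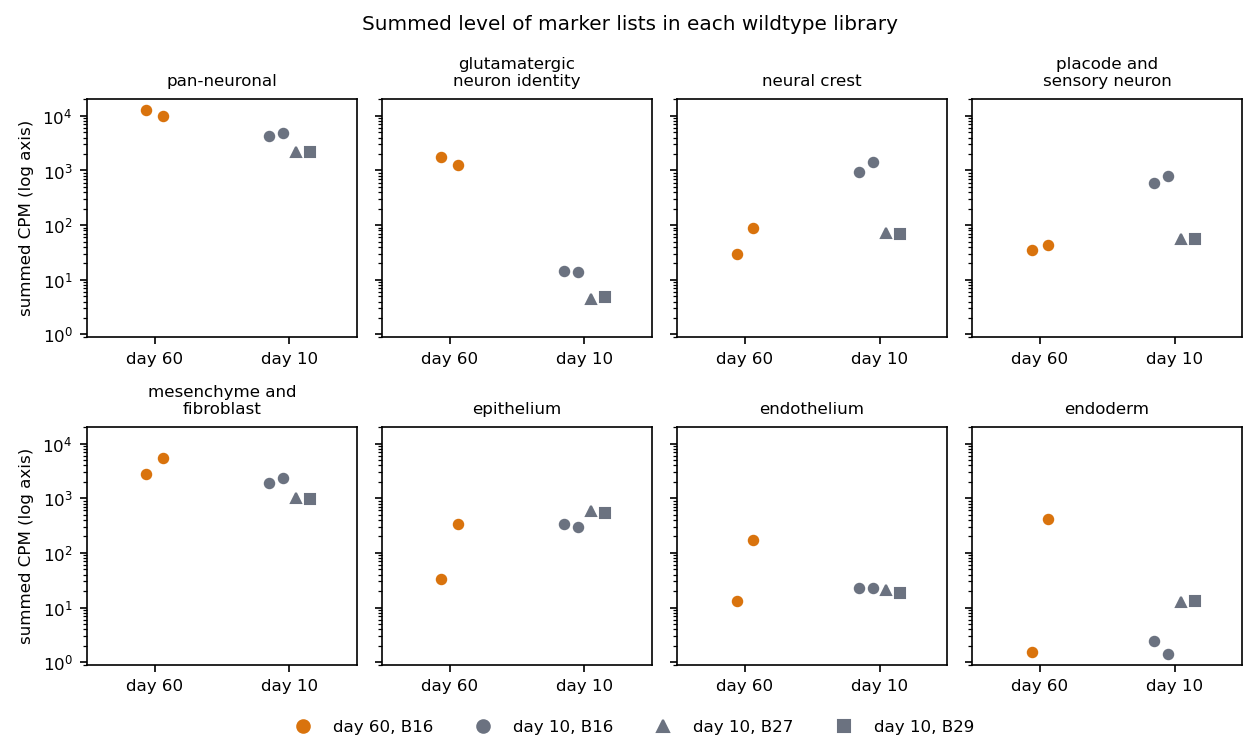
Summed level of marker lists in each wildtype library (sum of CPM over the list, log axis), day 60 left of day 10; circles are B16, triangles B27 and squares B29 libraries. Neural crest markers reach 940 and 1430 CPM in the B16 libraries of day 10 and stay below 90 CPM elsewhere, and endoderm markers reach 424 CPM in day 60 library 2 alone.

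Cells outside the nervous system were also marked at day 60, unequally between its libraries. COL3A1, a collagen of connective tissue, had 634 and 1792 CPM at day 60, against 0.312, 0.678, 0.0514 and 0.114 CPM at day 10 (11.99 ± 0.62). DCN, a proteoglycan of fibroblasts, had 52.8 and 190.2 CPM at day 60, against 0.0891, 0, 0.103 and 0 CPM at day 10 (11.05 ± 0.68). Both were near 0 in all day 10 libraries and over 50 CPM in both day 60 libraries, with library 2 the higher. COL1A1, another collagen, had 548 and 901 CPM at day 60, against 362, 477, 114 and 109.7 CPM at day 10 (1.45 ± 0.52; adjusted p = 0.0352), and COL1A2 was not called, except without the B16 libraries of day 10 (2.25; adjusted p = 5.2e-05). The call of COL1A1 was lost without day 60 library 1 (1.75), day 60 library 2 (1.04), day 10 library 3 (1.20) or day 10 library 4 (1.19). Of 17 mesenchyme genes 11 (64.7%) were called higher and 1 (5.88%) lower, against 29.3% and 26.1% of all genes tested. With day 60 library 2 left out, 9 members were called in place of 12, and the log2 fold changes of COL3A1 and DCN were 11.05 and 9.85 (adjusted p = 4.4e-07 and 1.3e-06).

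Endothelial and endodermal genes were mostly high in library 2 of the day 60 libraries. Summed epithelial markers were at 33.2 and 331 CPM at day 60, against 331, 293, 579 and 546 CPM at day 10. For the epithelial list, day 60 library 1 was thus the low library, and library 2 was within the range of day 10. Of the endothelial list 6 of 8 tested genes were called higher and 1 lower, and of the epithelial list 1 of 12 higher and 2 lower. The median log2 fold change of the epithelial list was -0.54 with all libraries and -2.50 without day 60 library 2. Without day 10 library 3 or library 4, 1 epithelial gene was called. CDH5, the cadherin of vessel walls, had 0.573 and 21.2 CPM at day 60, against 0.178, 0.782, 0.0514 and 0.0570 CPM at day 10, and it was called (5.31 ± 1.12; adjusted p = 0.00193) although the days overlap. Without day 60 library 2 its log2 fold change was 1.08 (adjusted p = 0.474). AFP, the fetal liver and yolk sac protein, had 301 CPM in day 60 library 2 and no count in the other 5 wildtype libraries, and APOA1, an apolipoprotein of liver and gut, had 72.8 CPM against 0.156 CPM in day 60 library 1. Neither passed the filter on low counts, which asks for enough libraries above the minimum. APOA1 is named after its values were seen. KRT8, a keratin of simple epithelia, had 4.06 and 111 CPM at day 60, against 165, 145, 238 and 226 CPM at day 10, so it was high in day 60 library 2 and in all day 10 libraries. The muscle filament DES had 5.68 and 64.6 CPM at day 60, against 1.34, 1.04, 0.771 and 1.20 CPM at day 10 (5.003 ± 0.71, and 2.38 without day 60 library 2). In the blood and microglia list 3 of 5 tested genes were called higher, at low levels. PTPRC, the leukocyte antigen CD45, had 0.573 and 0.605 CPM at day 60, against 0.0445, 0, 0 and 0 CPM at day 10. TTR, the defining choroid plexus gene, had 4.69 and 21.3 CPM at day 60, against 0.624, 2.14, 0 and 0 CPM at day 10 (4.21 ± 1.05), with library 2 again the higher at day 60. Without that library TTR was not called (2.74; adjusted p = 0.0901), and its log2 fold change was 10.87 without the B16 libraries of day 10. Of the eye genes, MITF had 4.27 and 4.89 CPM at day 60, against 2.09, 1.41, 1.08 and 0.970 CPM at day 10, and DCT, an enzyme of melanin synthesis, had 32.6 and 12.5 CPM at day 60, against 0.579, 0.313, 0.617 and 0.913 CPM at day 10. PMEL, another melanosome gene, fell by 3.55. The part of these cells in the changes of other genes was not tested.

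Most glycolysis genes fell. Of 25 glycolysis and hypoxia genes 16 were called lower and 3 higher. LDHA, which makes lactate, had 116 and 105 CPM at day 60, against 1293, 1412, 1293 and 1355 CPM at day 10 (-3.60 ± 0.14; adjusted p = 2.1e-08). ENO1, the general enolase, had 478 and 449 CPM at day 60, against 3372, 3601, 2794 and 2841 CPM at day 10 (-2.77 ± 0.28). HK2, the hexokinase of proliferating cells, and the glucose transporter SLC2A1 fell by 2.95 and 2.93. LDHA and ENO1 were far lower in both day 60 libraries than in any day 10 library. The genes called higher were VEGFA (1.17 ± 0.12), CA9 (2.96 ± 0.49) and NDRG1 (2.55 ± 0.31), which are known targets of hypoxia, whereas the hypoxia targets BNIP3, PDK1 and P4HA1 fell by 1.87, 2.44 and 2.17. The hypoxia targets named here thus did not all go one way, and none of the 3 genes called higher is a glycolytic enzyme.

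Sterol synthesis genes rose. In the cholesterol and fatty acid list 15 of 19 genes were called higher and 1 lower, with a median log2 fold change of 1.02. MVD, an enzyme of the mevalonate pathway, had 366 and 289.5 CPM at day 60, against 79.9, 89.2, 54.0 and 56.8 CPM at day 10 (2.23 ± 0.30). HMGCS1, an earlier enzyme of that pathway, had 1416 and 1095 CPM at day 60, against 598, 592, 391 and 425 CPM at day 10 (1.32 ± 0.27). INSIG1, a sterol sensor regulated with these enzymes, rose by 1.81 and MSMO1 by 1.66. The fall was in ACACA, which starts fatty acid synthesis (-0.71 ± 0.23), and its call was lost without day 60 library 2 (-0.57) and within B16 alone (-0.37). SCD and FDPS were not called.

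Cytosolic ribosomal protein genes held 4.84% and 5.71% of counts at day 60, against 9.65%, 9.54%, 8.53% and 8.57% at day 10. The share did not overlap between the days (exact permutation test, two-sided, p = 0.133, the smallest possible). Of 79 genes, 43 were called lower and 0 higher, with a median log2 fold change of -0.81. Within B16 alone 67 were called, with the replicate block 70, and without the B16 wildtype day 10 libraries 38. FEZ1-null day 10 library 1, which entered the shared estimate of spread, held 13.2% of its counts in these genes. The other FEZ1-null libraries of that day held 9.87%, 8.37% and 7.92%. Without FEZ1-null day 10 library 1, 57 genes of the list were called. Of 75 nuclear genes of the respiratory chain, 20 (26.7%, against 26.1% of all genes) were called lower and 5 higher, with a median of -0.20. Without either day 60 library 14 were called.

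Several stress and activity genes rose. TRIB3, a target of the integrated stress response, had 40.8 and 35.0 CPM at day 60, against 5.30, 5.37, 2.78 and 3.08 CPM at day 10 (3.19 ± 0.30). DDIT3, a transcription factor of the same response, had 29.6 and 38.4 CPM at day 60, against 10.4, 13.2, 5.91 and 3.99 CPM at day 10 (2.02 ± 0.39), whereas HSPA5, the main chaperone of the endoplasmic reticulum, was not called (-0.11 ± 0.12). The stress list held 7 called higher and 3 lower of 14. Of the p53 targets 8 of 14 (57.1%) were called higher and 1 (7.14%) lower. BBC3, which promotes apoptosis, had 44.2 and 48.1 CPM at day 60, against 7.57, 7.92, 8.02 and 7.25 CPM at day 10 (2.58 ± 0.30). Among immediate early genes 7 of 11 (63.6%) were called higher and 2 (18.2%) lower. JUN had 237 and 215 CPM at day 60, against 48.5, 42.6, 30.3 and 27.7 CPM at day 10 (2.60 ± 0.27) and the synaptic gene ARC had 41.1 and 29.7 CPM at day 60, against 7.39, 9.12, 1.59 and 1.26 CPM at day 10 (2.86 ± 0.61). FOS and EGR1 were not called with all libraries. EGR1 was called lower within B16 alone (-2.28; adjusted p = 1.2e-04) and higher without the B16 libraries of day 10 (0.96; adjusted p = 0.0230).

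Signalling lists leaned downward. Of 24 WNT pathway genes 12 were called lower and 2 higher. Within B16 alone 21 of them were called in either direction, in place of 14. Transcriptional targets were among those that fell. SP5 had 0.156 and 0.353 CPM at day 60, against 52.9, 67.3, 52.0 and 57.1 CPM at day 10 (-7.77 ± 0.45), LEF1 had 17.4 and 19.0 CPM at day 60, against 130.3, 117, 112 and 126 CPM at day 10 (-2.73 ± 0.22) and AXIN2 had 37.4 and 35.6 CPM at day 60, against 102, 144, 63.0 and 66.7 CPM at day 10 (-1.37 ± 0.31). The ligand WNT7A, expressed by cortical progenitors in mice, had 25.7 and 18.7 CPM at day 60, against 2.54, 2.03, 0.257 and 0.228 CPM at day 10 and rose by 4.10. Of 15 Notch pathway genes 8 were called lower and 3 higher, and 7 in all were called with either day 60 library left out. The receptor NOTCH1 rose by 0.94, whereas LFNG, a glycosyltransferase that modifies Notch receptors, had 34.1 and 33.4 CPM at day 60, against 299, 225, 289 and 313 CPM at day 10 (-3.06 ± 0.21) and the ligand JAG1 had 27.1 and 35.1 CPM at day 60, against 228, 259, 116 and 131 CPM at day 10 (-2.56 ± 0.43).

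Among genes often used to scale expression, 8 of 12 were called, 3 higher and 5 lower, against 55.4% of all genes tested called in either direction. TBP had 34.1 and 34.4 CPM at day 60, against 38.7, 38.2, 39.9 and 38.5 CPM at day 10 and was not called (-0.18 ± 0.11; adjusted p = 0.187). HPRT1 had 11.98 and 9.69 CPM at day 60, against 30.8, 24.6, 42.4 and 38.7 CPM at day 10 (-1.65 ± 0.22) and PGK1 had 179 and 189.9 CPM at day 60, against 1068, 1165, 1069 and 1099 CPM at day 10 (-2.58 ± 0.13), while GAPDH, of the glycolysis list, fell by 2.20. B2M, which is part of class I major histocompatibility complexes, had 55.4 and 170.0 CPM at day 60, against 23.1, 19.0, 33.4 and 32.9 CPM at day 10 (2.06 ± 0.35, and 1.03 without day 60 library 2).

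Several large falls lay outside the lists. TPBG, a surface glycoprotein of trophoblast and early embryonic cells, had 10.1 and 9.79 CPM at day 60, against 844, 693, 1419.8 and 1436 CPM at day 10 (-6.79 ± 0.40). ACTN3, an alpha-actinin known from fast muscle fibres, had 1.04 and 1.56 CPM at day 60, against 111, 132, 108 and 117 CPM at day 10 (-6.48 ± 0.42). VRTN, a factor named for vertebral number in pigs, had 0.0521 and 0.303 CPM at day 60, against 15.5, 13.5, 33.0 and 31.6 CPM at day 10 (-6.98 ± 0.74), and LIM2, a lens membrane protein, had 0.156 and 0.0504 CPM at day 60, against 23.4, 25.5, 19.3 and 19.8 CPM at day 10 (-7.65 ± 0.66). CD8B2 had no count at day 60 and 10.7, 3.28, 39.3 and 38.9 CPM at day 10, at least 289-fold lower against a floor of 3 counts over the day 60 group, and reads of its near copy CD8B may be counted in it. Among the rises, MYT1L, a zinc finger factor of neurons, had 117 and 88.1 CPM at day 60, against 0.0445, 0.104, 0.206 and 0.0570 CPM at day 10 (9.88 ± 0.37), and GPR12, a receptor of neurons, had 90.3 and 63.3 CPM at day 60, against 0.134, 0.104, 0.0514 and 0.0570 CPM at day 10 (9.65 ± 0.35).

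FEZ1 itself, an adaptor of kinesin motors in axons, is the gene that the labels of the other genotype call null. In wildtype it had 239.9 and 197 CPM at day 60, against 40.5, 43.3, 45.5 and 49.0 CPM at day 10. It rose by 2.29 (SE 0.13; adjusted p = 2.0e-07) and the days did not overlap, as in 12867 of all 17757 genes tested. The time course was compared with that of the FEZ1-null organoids by an interaction term, wildtype change minus FEZ1-null change. No gene (0%) was called by edgeR's quasi-likelihood test, with 1269 genes at an unadjusted p below 0.05, whereas DESeq2 called 75 and a fit of the B16 libraries alone called 908. Without wildtype day 60 library 1, edgeR called 193. Of the 9837 genes called in wildtype, 8400 (85.4%) were called in the same direction in the FEZ1-null organoids, where 10227 were called (82.1% of them shared), and 3 were called in opposite directions (CXXC4, IRX2 and PTPN6, named after their values were seen). In wildtype the calls of CXXC4 and IRX2 were lost without day 60 library 1 (-0.81 and -1.03) and that of PTPN6 without library 2 (0.28) and without the B16 libraries of day 10 (1.10; adjusted p = 0.142). A missing interaction call does not show that the genotypes matured alike. FEZ1 averaged 48.0 CPM at day 60 and 20.6 CPM at day 10 in the FEZ1-null organoids, so its transcript was reduced there but present on both days. It changed by 1.22 on the log2 scale in FEZ1-null organoids, 1.07 less than in wildtype, with an unadjusted interaction p of 1.3e-04 and an adjusted p of 0.467. LIN28A changed by -11.69 and NEUROD2 by 12.44 in FEZ1-null organoids, beside -11.71 and 11.77 in wildtype.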

How the data were processed

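Bulk RNA-seq of total RNA was measured in 12 libraries, 6 of them wildtype. The authors deposited raw counts per gene (28207 genes, of which 3350 had no count in any library). The submitters' processing notes name the build hg19 and the tools STAR, HTSeq and DESeq2, without versions; whether counting used strand is not given in the sources used here. From these counts, edgeR 4.0.16 (R 4.3.3, limma 3.58.1) fitted 1 group term per genotype and day over all 12 libraries, with TMM scaling, a filter on low counts and a robust quasi-likelihood F test, at an adjusted p below 0.05 (Benjamini-Hochberg). A test against a 2-fold minimum and the interaction of day and genotype came from the same fit. DESeq2 1.42.0 was an alternative. The fit was also run on simulated counts with few changed genes and no difference between codes. That run does not show how the fit behaves on the present libraries. Wildtype depth ran from 18.1 M to 22.7 M counts; intervals and floors (3 counts) cover counting error only. Named genes were the 12 largest rises and falls above 20 CPM and, per list, up to 5 called members, 2 uncalled members and those marked as defining; some are not reported here. ACACA, ARID3A, BNIP3, GAPDH, GLI3, HMGA2, IGDCC3, IGF2BP1, IGF2BP2, IGF2BP3, LEFTY1, LHX2, MIR99AHG, NDRG1, NEFM, NES, P4HA1, PDK1, PHGDH, SCD, SIX3 and SOX1 are outside that rule and were chosen after their values were seen. The 47 lists and the 18 pairs were chosen with earlier results of these data known, so they support nothing by themselves. Alternatives were other scalings, no filter, DESeq2, wildtype or B16 libraries alone, the replicate number as a block and each library left out.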

Additional observations from a re-analysis of the deposited data

Results flagged for a closer look

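Each value by library was checked among the 4 wildtype day 10 libraries for 1 library far from the other 3, by the gap to the nearest library divided by the range. Chance gives such a flag in about 1 of 20 groups of 4 alike libraries, and 8 of 218 values were flagged. The day 10 group mixes B16 libraries with others, so this count does not show how even the group was. In HOPX, HOXB3, NEUROD6 and PTPRC a single day 10 library had any count, so the ratio was 1 by construction. The level of AQP4 was flagged at 0.869, with library 3 the lowest. The level of MSMO1 was also flagged at 0.869 and that of PHGDH at 0.969. The log2 ratio of LDHB to LDHA was flagged at 0.848. Library 4 was the highest in MSMO1 and library 3 in PHGDH. Leaving out any 1 day 10 library turned the direction of none of these 8 values.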

How the results depend on the processing

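The count of genes called between day 60 and day 10 (9837) lay between 9227 and 10193 under the 8 other alternatives run, and between 7549 (without wildtype day 60 library 1) and 11409 (without FEZ1-null day 10 library 1) with 1 library left out. The count beyond 2-fold (3838) lay between 2727 (DESeq2) and 4650 (without the B16 wildtype day 10 libraries), and between 3107 and 4178 with 1 library left out. Of the 9837 genes, 8770 were also called without the B16 wildtype day 10 libraries. The interaction count was 0 in the fit as reported, 75 by DESeq2, 908 within B16 alone, 1 with the replicate block, and between 0 and 193 with 1 library left out; the cause was not tested. Replicate numbers shared between the days give 2 pairs only. The difference of replicate 1 and replicate 2 correlated between the days at 0.00358 over 17757 genes. A correlation of 1 difference per day cannot show whether libraries of the same number share a source. The replicate block gave 9227 calls and 3309 beyond 2-fold; among named genes it ended the calls of ACACA (adjusted p = 0.0535) and PTPN6 (0.150) and gave calls of S100B, SST and TNC.

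Of 3959 values of single genes under alternatives, 3797 kept direction and side of the threshold, 63 lost the call, 53 gained it and 46 changed sign. Apart from POU4F1 the genes that changed sign were not called with all libraries. Some were called in the alternative where the sign changed, and such calls are not counted among the 53. Among them were GAD1 and GRIN2A within B16 alone, and EGR1 and TNC without the B16 wildtype day 10 libraries. Log2 fold changes within B16 alone were 0.83 for GAD1, 1.12 for GRIN2A, 0.51 for PTPRZ1, 1.30 for RAX, 1.06 for SIX3, 0.11 for SOX2, 0.12 for NODAL, -0.0027 for DNMT3A, -0.19 for FOS, -0.25 for FOXP2 and -0.20 for RELN. Without the B16 wildtype day 10 libraries they were 0.15 for AQP4, -0.37 for CDH1, 0.96 for EGR1, 2.90 for NEFM, 1.59 for POU4F1, 3.99 for SST and 1.13 for TNC. With the replicate block they were -0.032 for DNMT3A, 0.43 for GAD1, 0.49 for GRIN2A, 0.051 for PTBP2, 0.46 for PTPRZ1 and -0.020 for TP73. With library totals they were 0.091 for GRIN2A, 0.00063 for HSPA5, 0.068 for PTBP2 and 0.081 for PTPRZ1. With 1 library left out, the genes that changed sign ranged from -0.91 to 0.27 for AQP4, -1.53 to 0.94 for CDH1, -0.055 to 0.086 for DNMT3A, -0.56 to 0.16 for GAD1, -0.31 to 0.35 for GRIN2A, -0.29 to 0.017 for NODAL, -0.14 to 0.041 for PTBP2, -0.20 to 0.15 for PTPRZ1, -0.0021 to 0.33 for SCD and -1.69 to 0.36 for UTF1. The causes were not tested. A fit with 1 day 60 library takes that library to vary like the other groups, and a gene with no count at day 10 has only a lower bound of its fold at this depth.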
